A study of Homo sapiens with 8 samples.

Results

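Translation initiation factors were followed across A549 and PC9, established human lung adenocarcinoma lines, with and without introduced EN2, a homeobox transcription factor of the engrailed family. The group was defined by gene symbol, as genes named EIF1 to EIF6 with the eIF4E-binding proteins kept, and the eIF2 kinases and pseudogenes left out. Of 18244 genes with a probe set of their own, 47 met this definition. They were covered by 153 probe sets, 40 of the genes by more than 1, and each gene was read from the probe set with the highest mean over the 8 arrays. The 4 groups had 2 arrays each. They were A549 cells infected with an EN2 retrovirus, A549 cells infected with the Neo control retrovirus (the vector control), PC9 cells with EN2 and PC9 cells with the Neo control. All 4 were stable cells selected with genemycin, the drug name given in the labels, after infection with supernatants from 293FT packaging cells, so the controls had also been infected and selected. A549 was grown in F-12K and PC9 in Dulbecco's medium, both with serum. Medium and line therefore cannot be told apart. The labels do not say whether a line was a clone, nor which promoter drove EN2, nor that the 2 arrays of a group came from separate cultures, so p-values measure the spread between these arrays, which may be technical.

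Initiation factors bring the small ribosomal subunit, the initiator tRNA and the mRNA together and place the ribosome at the start codon. eIF2 carries the initiator tRNA and is recharged by the exchange factor eIF2B, while eIF3 holds the small subunit and many of the other factors. eIF4F, made of the cap-binding protein eIF4E, the scaffold eIF4G and the helicase eIF4A, recruits capped mRNA, and the eIF4E-binding proteins, which the kinase mTOR controls, block that step. Stress and growth signals act on this machinery mainly through eIF2 and eIF4E, largely by protein modification, which RNA arrays do not measure.

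All values were log2 array signals summarised by RMA. The median signal of an array lay between 6.33 and 6.35 in A549, and between 6.10 and 6.11 in PC9. The 18S rRNA control signal ran from 11.7 to 12.1 in the A549 EN2 arrays and from 12.4 to 12.7 in the A549 vector arrays, and it was 6.05 to 6.10 on the PC9 arrays. The ACTB 3′ minus 5′ signal, a sign of RNA quality, also separated the A549 groups, at 0.98 and 0.88 with EN2 against 0.79 and 0.78 with vector, and its part in the members' values was not tested. EN2 itself read 7.71 and 7.62 with EN2 against 6.48 and 6.57 with vector in A549, and 6.24 and 6.39 with EN2 against 5.86 and 5.78 with vector in PC9. Its log2 change was 1.15 ± 0.091 in A549 (SE, limma adjusted p = 0.00028), and in PC9 it was 0.50 ± 0.091, which did not pass (limma adjusted p = 0.0801). These are values of the brightest EN2 probe set. With all EN2 probe sets averaged, the A549 change was smaller, at 0.60 (limma adjusted p = 0.0179). In A549 EN2 did not pass with the 18S rRNA signal in the model (1.11, limma adjusted p = 0.13). That signal did not overlap between the A549 EN2 and vector arrays. A call lost in such a fit therefore cannot be assigned to EN2 or to that signal. All 8 epithelial markers were above the spike-in background in both lines, although EPCAM in A549, at 5.19 to 6.05, was far below its PC9 values of 11.96 to 12.05. Of 9 measured leukocyte, endothelial and fibroblast markers, 5 were above background in A549 and 6 in PC9, among them CD68 at 8.26 to 8.62 in A549 and 9.04 to 9.20 in PC9, PDGFRB, PECAM1 and, in PC9 alone, CDH5. PTPRC, LUM and DCN were above it in neither line, and none of the 9 was called with EN2 in either line.

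Almost all initiation factors were well detected. Of the 46 members whose levels are given here, 44 in A549 and 45 in PC9 exceeded a background set at the 95th percentile of ERCC spike-ins, 4.41 in A549 and 3.89 in PC9. EIF5AL1, a copy of eIF5A, was below it in both lines, and EIF4E1B, an eIF4E relative best known from oocytes, was below it in A549. EIF1AY, the Y-linked copy of EIF1AX, was tested with the others but its levels are not given. In bulk RNA, fewer cells with a transcript and less of it per cell cannot be told apart.

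In A549, EN2 and vector cells were compared to ask whether the initiation machinery changed with EN2. Among the members, 2 rose, 0 fell and 45 did not pass at an adjusted p below 0.05 over all genes. EIF5A2, the second gene of the translation factor eIF5A, rose 1.52-fold, and the other was EIF1AY (adjusted p = 0.00537 by limma). Across all genes, 1.57% were called higher and 1.15% lower in this comparison. The members' median log2 change was 0.015, with 24 positive and 23 negative, and the median of all genes was −0.0015. EN2 and vector arrays did not overlap for 22 of the 47 members, 11 in each direction, a share close to the 47.6% of all genes. An unadjusted p below 0.05 was found for 11 members and for 3175 of all genes.

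EIF5A2 in A549 read 7.51 and 7.79 with EN2, against 7.001 and 7.09 with vector. The groups did not overlap. The log2 change was 0.61 ± 0.13 (SE, limma adjusted p = 0.041), between group means of 7.65 ± 0.20 and 7.04 ± 0.059 (SD, n = 2 arrays each). eIF5A proteins carry hypusine, a modified lysine found in no other protein, and help the ribosome form difficult peptide bonds. EIF5A2 is the more restricted of the pair and EIF5A the general form. EIF5A moved the other way without passing, at 12.19 and 12.22 with EN2 against 12.28 and 12.37 with vector (log2 change −0.12 ± 0.055, limma adjusted p = 0.312).

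The EIF5A2 change had the same sign on all 4 of its probe sets, from 0.26 to 0.61, and on each of them the A549 EN2 arrays lay above the vector arrays. When every probe set was tested, no EIF5A2 probe set passed (adjusted p = 0.0501 for the brightest). The call rested on a small margin. It ended without A549 EN2 replicate 1 (0.75, adjusted p = 0.0783), EN2 replicate 2 (0.47, adjusted p = 0.128), vector replicate 1 (0.57, adjusted p = 0.108) or vector replicate 2 (0.65, adjusted p = 0.187). It also ended without either PC9 vector array (0.61, limma adjusted p = 0.0624). With 18S rRNA added to the model as a covariate, the change was 0.94 ± 0.24 (SE, limma adjusted p = 0.379). No member was called in A549 with that covariate, which did not overlap between the EN2 and vector arrays, so the 2 cannot be told apart. EN2 replicate 1 and vector replicate 2 were the extremes of that signal in A549. Leaving both out left 1 array in each A549 group, and the EIF5A2 change was then 0.79.

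**Figure D1:**
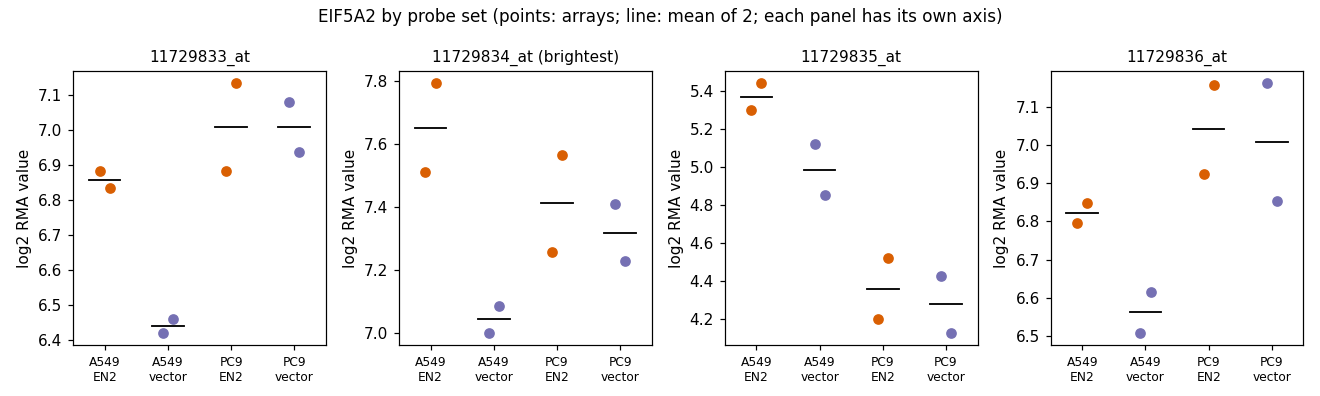
EIF5A2 log2 RMA values (vertical axes, each with its own range) on its 4 probe sets, with a point for each array and a line for the mean of 2 arrays, for EN2 and vector groups of A549 and PC9. In every panel both A549 EN2 points lie above both A549 vector points, while the PC9 groups overlap.

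Promoter sequences are shown for the member with levels that rose (EIF5A2), for the member with the next highest A549 change (EIF4A3) and for the member furthest below PC9 in the A549 controls (EIF4EBP2). They are the 250 bases before the RefSeq start in GRCh38.p14, 5′ to 3′ on the gene's strand. Capitals mark the motifs searched on both strands: TAATTA (the core bound by engrailed-type homeodomains), CACGTG (E-box), CCAAT and GGGCGG (GC box). None of these 4 motifs contains another. EIF5A2 lies at chr3:170908638-170908887 (minus strand), EIF4A3 at chr17:80147129-80147378 (minus strand) and EIF4EBP2 at chr10:70403895-70404144 (plus strand).
EIF5A2: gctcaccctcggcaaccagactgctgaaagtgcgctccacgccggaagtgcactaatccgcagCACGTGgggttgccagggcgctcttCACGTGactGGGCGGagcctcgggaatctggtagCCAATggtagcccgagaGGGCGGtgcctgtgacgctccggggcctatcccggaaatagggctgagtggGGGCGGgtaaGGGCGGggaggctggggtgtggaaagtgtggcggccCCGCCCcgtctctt
EIF4A3: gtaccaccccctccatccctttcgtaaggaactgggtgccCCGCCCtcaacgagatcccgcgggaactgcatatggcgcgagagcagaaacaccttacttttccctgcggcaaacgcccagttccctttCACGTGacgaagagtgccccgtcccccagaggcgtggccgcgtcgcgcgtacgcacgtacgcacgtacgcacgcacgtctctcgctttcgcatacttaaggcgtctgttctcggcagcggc
EIF4EBP2: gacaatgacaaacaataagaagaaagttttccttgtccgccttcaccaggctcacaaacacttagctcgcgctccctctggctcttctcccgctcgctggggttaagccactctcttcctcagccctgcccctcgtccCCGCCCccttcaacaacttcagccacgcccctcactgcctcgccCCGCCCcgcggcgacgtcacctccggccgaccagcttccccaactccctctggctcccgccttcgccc

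The EIF5A2 window held 2 E-boxes, 1 CCAAT motif and 5 GC boxes, and the EIF4A3 window 1 E-box and 1 GC box. The EIF4EBP2 window held 2 GC boxes and none of the other motifs. TAATTA was in none of the 3 windows. For 40 of the 47 members the reference held 54 promoter windows. Of these, 18.5% had an E-box, against 6.34% of all 35116 windows, and 64.8% had a GC box, against 42.6%. CCAAT was in 37.0% of the members' windows, against 32.0% of all, and TAATTA in 1.85%, against 4.35%. Genes with several starts gave several windows, so windows are not independent, and a match is a description of the letters only.

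Factors of start site selection and subunit joining gave 2 of the largest A549 differences. EIF5, the GTPase activator that triggers release of eIF2 at the start codon, had the lowest change of all members. It read 10.97 and 11.03 with EN2, against 11.14 and 11.40 with vector, and both EN2 arrays lay below both vector arrays. The log2 change of −0.27 ± 0.080 did not pass (SE, limma adjusted p = 0.115). All 7 EIF5 probe sets were negative, from −0.56 to −0.20, and 1 of them was called when every probe set was tested (adjusted p = 0.028). EIF5 itself was called without A549 vector replicate 1 (−0.40, limma adjusted p = 0.025), but was −0.14 when vector replicate 2 was left out (adjusted p = 0.555). The covariate of 18S rRNA gave −0.032.

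EIF5B, the GTPase that joins the large ribosomal subunit, read 9.15 and 9.41 with EN2, against 8.90 and 9.11 with vector. The groups were separated by a narrow gap, and the log2 change of 0.28 ± 0.10 did not pass (SE, limma adjusted p = 0.205). All 4 probe sets were positive, from 0.11 to 0.37, and 1 was called when every probe set was tested (adjusted p = 0.0493). EIF5B was 0.15 without EN2 replicate 2, 0.17 without vector replicate 1 and 0.69 in the model that holds 18S rRNA, and did not pass in any of these fits by limma. Of the start codon scanning factors, EIF1 (log2 change 0.083), its close relative EIF1B (0.015) and EIF1AX (−0.13) did not pass. The eIF1A-domain gene EIF1AD (0.14), grouped with them by name, did not pass either. The other EIF1AD probe set was negative at −0.31 and was not called.

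Among helicases and scaffolds, EIF4A3, the eIF4A relative that sits in the exon junction complex, had the highest change after EIF5A2 and EIF1AY. It read 11.23 and 11.12 with EN2, against 10.97 and 10.80 with vector, without overlap. Its log2 change of 0.29 ± 0.071 missed the threshold (SE, limma adjusted p = 0.0666). It was called without A549 vector replicate 1 (0.38, adjusted p = 0.0339) and was 0.046 with the 18S rRNA covariate (limma adjusted p = 1). EIF4G1, the main eIF4F scaffold, read 9.94 and 10.16 with EN2, against 10.27 and 10.26 with vector (log2 change −0.22 ± 0.094, limma adjusted p = 0.265). Both EN2 arrays lay below both vector arrays, the first by more than the second. Its change was −0.11 without EN2 replicate 1 and 0.0044 with the 18S rRNA covariate. The helicases EIF4A1 (0.13) and EIF4A2 (0.018), their cofactors EIF4B (0.082) and EIF4H (−0.058), and EIF4G2, a scaffold that does not bind eIF4E (0.044), did not pass. The other EIF4H probe set was −0.82 in A549 and −0.47 in PC9, and was called in neither line.

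No eIF3 subunit was called in A549, among 12 measured with a median of −0.024. EIF3J, the loosely bound subunit, read 9.60 and 9.73 with EN2, against 9.77 and 10.03 with vector (log2 change −0.24 ± 0.10, limma adjusted p = 0.268). It was −0.11 without vector replicate 2, −0.36 without vector replicate 1 and, with the sign turned, 0.072 with the 18S rRNA covariate. EIF3A, the largest subunit and scaffold, read 10.38 and 10.41 with EN2, against 10.18 and 10.22 with vector (0.19 ± 0.063, limma adjusted p = 0.15). The groups did not overlap for either gene, and their changes were the lowest and the highest of the 12 subunits. The other 10 subunits lay between −0.14 for EIF3B and 0.11 for EIF3L. EIF3C had no probe set of its own in the annotation and is described with the shared probe sets at the end.

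No eIF2 or eIF2B gene was called in A549. Of the 3 eIF2 subunits, EIF2S1, which carries the regulated serine, changed by −0.020, EIF2S2 by −0.14 and EIF2S3 by 0.060 on the log2 scale in A549, and none passed. EIF2D, which can deliver tRNA to the ribosome without eIF2, read 8.78 and 8.73 with EN2, against 8.94 and 8.92 with vector. Its change of −0.17 ± 0.065 did not pass (SE, limma adjusted p = 0.203), and its second probe set was positive at 0.031. The 5 eIF2B subunits ran from −0.11 for EIF2B2 to 0.052 for EIF2B5, with a smallest adjusted p of 0.499.

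The cap-binding proteins and their inhibitors did not pass either. EIF4E changed by 0.042, EIF4E2, a cap-binding relative that mostly represses, by −0.042, and EIF4E3 by 0.046 on the log2 scale in A549. EIF4EBP1 changed by −0.068 and EIF4ENIF1, which carries eIF4E into the nucleus and into granules, by 0.030. EIF4EBP2 changed by 0.026 on its brightest probe set, but its other 4 probe sets were negative, from −0.43 to −0.099, and 1 of these was called when every probe set was tested (adjusted p = 0.0462). In that test 4 of the members' 153 probe sets were called, those of EIF5, EIF5B, EIF4EBP2 and EIF1AY, or 2.61%, against 1.97% of all probe sets. EIF6, which keeps free large subunits apart, changed by −0.074.

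**Figure D2:**
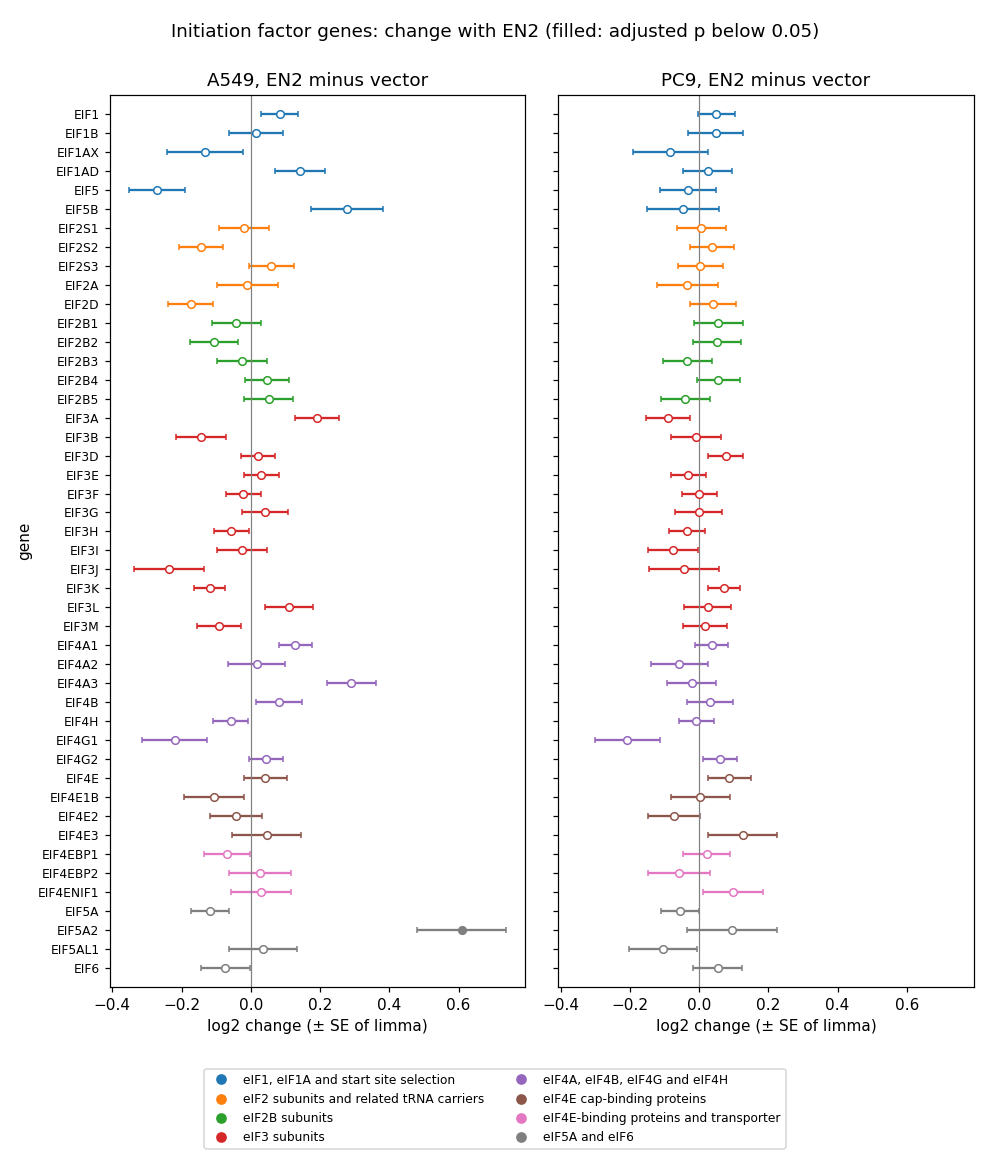
Log2 change with EN2 (horizontal axis, EN2 minus vector, with the SE of limma's fit) of the 46 members whose levels are given, ordered by role, in A549 (left) and PC9 (right). EIF5A2 in A549 is the single filled point, at 0.61, and in PC9 no point lies beyond the −0.21 of EIF4G1 in size.

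In PC9 the same comparison called none of the 47 members by limma, against 0.367% of all genes, and 0 members had an unadjusted p below 0.05, against 1232 of all genes. The median log2 change was 0.0035, with 26 positive and 21 negative, and the median of all genes was 0.0040. The groups did not overlap for 13 members, 8 higher and 5 lower, a share of 27.7% against 32.9% of all genes. None of the members' probe sets was called when every probe set was tested, against 0.279% of all.

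EIF4G1 had the lowest PC9 change. It read 10.06 and 10.30 with EN2, against 10.38 and 10.39 with vector, without overlap (log2 change −0.21 ± 0.094, limma adjusted p = 0.743). Its 3 probe sets did not share a sign in PC9 and ran from −0.21 to 0.20, while all 3 were negative in A549. EIF5A2 read 7.26 and 7.57 with EN2, against 7.41 and 7.23 with vector in PC9 (0.094 ± 0.13, limma adjusted p = 1). Its PC9 groups overlapped. EIF4A3 read 11.32 and 11.38 with EN2, against 11.38 and 11.36 with vector, with a change of −0.021.

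After these, the lowest PC9 changes were those of EIF5AL1 (−0.10), whose signal was below background, EIF3A (−0.090) and EIF1AX (−0.083). The highest among members with levels were EIF4E3 (0.13), EIF4ENIF1 (0.097) and EIF5A2. None of these passed, with adjusted p-values of 0.743 or more in limma's fit.

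The difference between the 2 changes was tested directly, and 0 of 47 members were called by limma, against 0.784% of all genes. An unadjusted p below 0.05 was found for 6 of 47 members and for 2175 of 18244 genes. For EIF5A2 the A549 change exceeded the PC9 change by 0.51 ± 0.18 (SE, limma adjusted p = 0.303). For EIF5B the difference was 0.32 (adjusted p = 0.432), for EIF4A3 0.31 (adjusted p = 0.244) and for EIF3A 0.28 (adjusted p = 0.241). For EIF5 it was −0.24 (adjusted p = 0.455). A response particular to A549 was therefore not shown for any of them.

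Genes that act on or beside these factors were read from lists of 6 to 28 genes. Of 6 eIF2 kinases and phosphatase subunits, 21 genes of mTORC1 and cap-dependent control and 19 other initiation partners, none passed in A549 or PC9. Of 28 ATF4 and integrated stress response genes, SHMT2, the mitochondrial serine hydroxymethyltransferase, fell in A549, none rose and 27 did not pass. SHMT2 read 9.32 and 9.51 with EN2, against 9.87 and 10.02 with vector (log2 change −0.53 ± 0.088, limma adjusted p = 0.0158). Of 16 elongation and termination factors, EEF2K, the kinase that inhibits elongation factor 2, fell in A549, none rose and 15 did not pass. EEF2K read 6.55 and 6.81 with EN2, against 7.20 and 7.26 with vector (−0.55 ± 0.11, limma adjusted p = 0.0294). In both, the EN2 arrays lay below the vector arrays.

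With the 18S rRNA covariate neither passed, at −0.23 for SHMT2 (limma adjusted p = 0.917) and −0.22 for EEF2K (adjusted p = 0.996). SHMT2 also did not pass without A549 EN2 replicate 1 (adjusted p = 0.128), without vector replicate 2 (0.138), with the compared groups alone (0.124) or without both 18S rRNA extremes (0.432). EEF2K did not pass without A549 EN2 replicate 1, either A549 vector array or either PC9 vector array, with limma adjusted p from 0.0548 to 0.216, nor with averaged probe sets (0.0916), the compared groups alone (0.137) or without both extremes (0.581). No member of these 5 lists passed in PC9. The list medians in A549 ran from −0.046 for initiation partners to 0.053 for stress response genes. The largest list changes in PC9 were those of DEPTOR, an mTOR inhibitor (−0.98, adjusted p = 0.808), and NUPR1, a stress-induced nuclear protein (0.61, adjusted p = 0.545). The PC9 vector arrays of DEPTOR differed widely from each other, at 6.09 and 7.93. Of 8 epithelial markers, 4 were called lower on the same A549 EN2 arrays. Of these, CDH1 read 8.50 and 8.64 with EN2 against 9.72 and 9.65 with vector. KRT7 (0.048), KRT10 (0.099) and MUC1 (0.14) went the other way without passing, with EN2 arrays above vector arrays. The part of these markers in the members' values was not tested.

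The vector controls of A549 and PC9 were compared to ask how the initiation machinery of the lines differs without introduced EN2. Of the 47 members, 12 were called higher in A549, 28 lower and 7 not. Of all genes, 46.0% were called higher and 29.7% lower. Most members were brighter than most genes, with a median signal over the 8 arrays of 10.58 against 6.84 for all genes. With genes above the median signal alone, 3263 genes were called higher and 3901 lower, so the share of all genes is not a background of like brightness. The members' median difference was −0.23, against 0.17 for all genes, with 16 members positive and 31 negative. The arrays of the lines may have been normalised apart, so the zero of this difference is uncertain. The vector arrays also differed in 18S rRNA signal, at 12.4 and 12.7 in A549 against 6.05 and 6.10 in PC9. Their ACTB 3′ minus 5′ signal was 0.79 and 0.78 in A549 against 1.09 and 1.13 in PC9. The part of these signals in the differences between lines was not tested. With each array centred on the same median, the difference of all genes had a median of −0.068 and that of the members −0.47, with 7 called higher and 33 lower and, of all genes, 5820 higher and 7423 lower, against 8399 and 5424 as deposited. With quantile normalisation over all arrays, these medians were −0.025 and −0.16, with 13 higher and 25 lower, and 6166 and 6712 of all genes. Averaging each gene's probe sets gave medians of 0.22 for all genes and −0.12 for the members, with 16 members higher and 22 lower and 9405 and 4737 of all genes, and turned the sign of EIF2S2, EIF3A, EIF3B, EIF3F, EIF4A1 and EIF4H. For 10 members, EIF2S2, EIF3A, EIF3F, EIF3G, EIF3J, EIF4A1, EIF4E, EIF4H, EIF5 and EIF5A2, probe sets were called in both directions between the lines, so their direction is not settled and the values given are those of the brightest probe set.

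EIF4E3, a cap-binding protein that engages the cap in an unusual way and can oppose eIF4E, was the highest in A549 among members with levels. It read 6.55 in both A549 vector arrays, against 4.31 and 4.51 in the PC9 vector arrays. The log2 difference was 2.15 ± 0.10, or 4.43-fold (SE, limma adjusted p = 4.21e-08). All 5 probe sets were higher in A549, from 1.47 to 3.85, and in PC9 all but the brightest were below the spike-in background. EIF4E had a difference of −0.35 on its brightest probe set (limma adjusted p = 0.000547), at 10.34 and 10.38 in A549 against 10.75 and 10.66 in PC9, but its 7 probe sets ran from −0.74 to 0.31.

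The eIF4E-binding proteins differed in opposite directions. EIF4EBP2 had the lowest difference of all members, at 8.20 and 8.25 in A549 against 9.59 and 9.77 in PC9. It was 2.75-fold lower in A549 (log2 difference −1.46 ± 0.089, limma adjusted p = 2.87e-07), and all 5 probe sets were lower, from −1.86 to −0.87. EIF4EBP1, the best studied mTOR substrate of the group, read 11.67 in both A549 arrays, against 11.33 and 11.21 in PC9. It was higher in A549 by 0.39 ± 0.067 (SE, limma adjusted p = 0.000404), with all 3 probe sets positive and 2 of them called. Neither direction turned under quantile normalisation or median centring. Centring moved each difference by −0.24, a large part of the 0.39 of EIF4EBP1, so the size of that difference is uncertain.

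The subunits of eIF2B, a complex with fixed proportions, did not share a direction. EIF2B4 read 10.12 and 10.14 in A549, against 9.22 and 9.15 in PC9, and was 1.92-fold higher (log2 difference 0.94 ± 0.063, limma adjusted p = 5.48e-07). EIF2B2 read 10.26 and 10.18 in A549, against 11.21 and 11.17 in PC9, and was 1.97-fold lower (−0.97 ± 0.069, limma adjusted p = 8e-07). Both probe sets of each gene had the same sign. EIF2B3 (−0.52), EIF2B5 (−0.50) and EIF2B1 (−0.29) were also lower in A549. Of eIF2 itself, EIF2S1 was higher (0.43), while EIF2S3 (−0.35) and EIF2S2 (−0.16) were lower on their brightest probe sets. Another EIF2S2 probe set was called higher, at 0.88, so the direction of EIF2S2 is not settled.

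**Figure D3:**
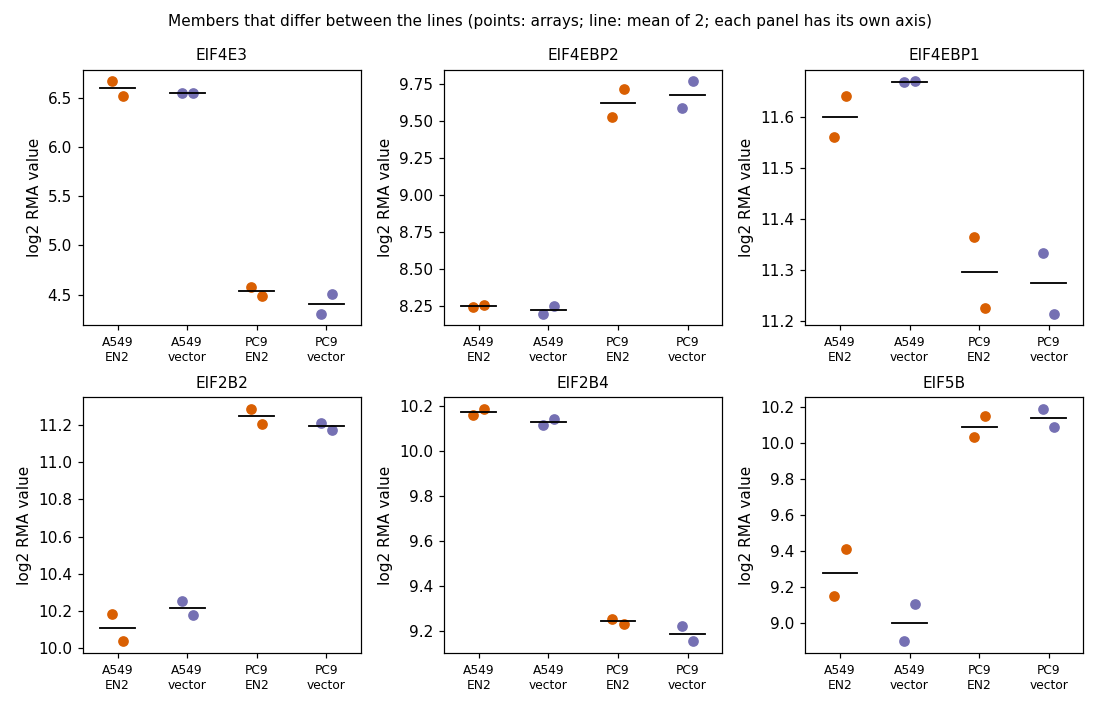
Log2 RMA values (vertical axes, each with its own range) of 6 members that differed between the lines, with a point for each array and a line for the mean of 2 arrays. EIF4E3, EIF4EBP1 and EIF2B4 are higher in all A549 arrays than in all PC9 arrays, and EIF4EBP2, EIF2B2 and EIF5B are lower, with and without EN2.

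Of the other members with large differences, EIF5B read 8.90 and 9.11 in A549, against 10.19 and 10.08 in PC9 (log2 difference −1.13 ± 0.10, limma adjusted p = 5.45e-06). EIF2D was lower by −0.87 on the log2 scale, and its second probe set by −0.53. Both A549 arrays lay below both PC9 arrays for each gene. EIF1AX was higher at 8.81 and 8.95 in A549, against 8.19 and 8.21 in PC9 (0.68 ± 0.11, limma adjusted p = 0.000269), and EIF6 was higher by 0.44.

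Of 12 eIF3 subunits, 8 were called lower in A549, 2 higher and 2 not, each on its brightest probe set. Among those called lower, EIF3A and EIF3F also had probe sets called higher, at up to 1.52 and 0.92. EIF3K was not called on its brightest probe set, but all 4 of its probe sets were positive, up to 1.08, and 3 were called. EIF3I read 11.02 and 11.15 in A549, against 11.91 and 11.84 in PC9 (log2 difference −0.79 ± 0.072, limma adjusted p = 5.24e-06). EIF3L was lower by −0.73 on 4 of 4 probe sets with the same sign, followed by EIF3E (−0.71). EIF3G was −0.62 on its brightest probe set, and its 4 called probe sets ran from −1.20 to 0.59. EIF3J and EIF3D (0.24) were the subunits called higher. The EIF3D difference was about as large as the shift of −0.24 under median centring, and its other probe set was 0.043. EIF3J read 9.77 and 10.03 in A549, against 9.42 and 9.25 in PC9 (0.57 ± 0.10), but its other probe set was lower in A549 by −0.35, also called (limma adjusted p = 0.00375). With the mean of both its probe sets EIF3J was 0.11 (limma adjusted p = 0.249).

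Of the 7 eIF4A, eIF4B, eIF4G and eIF4H genes, 5 were lower in A549, none higher and 2 not called. EIF4B was lowest (−0.61), followed by EIF4A2 (−0.52), EIF4A3 (−0.49), EIF4A1 (−0.45) and EIF4H (−0.40). The other EIF4H probe set was called higher in A549 at 1.24, and 4 of the 7 EIF4A1 probe sets were positive, up to 0.52. EIF4G1 (−0.12) and EIF4G2 (0.046) did not pass. EIF5A was lower in A549 by −0.61 and EIF5A2 by −0.27, where EIF5A2 did not pass (limma adjusted p = 0.0778) and its probe sets ran from −0.57 to 0.71.

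**Figure D4:**
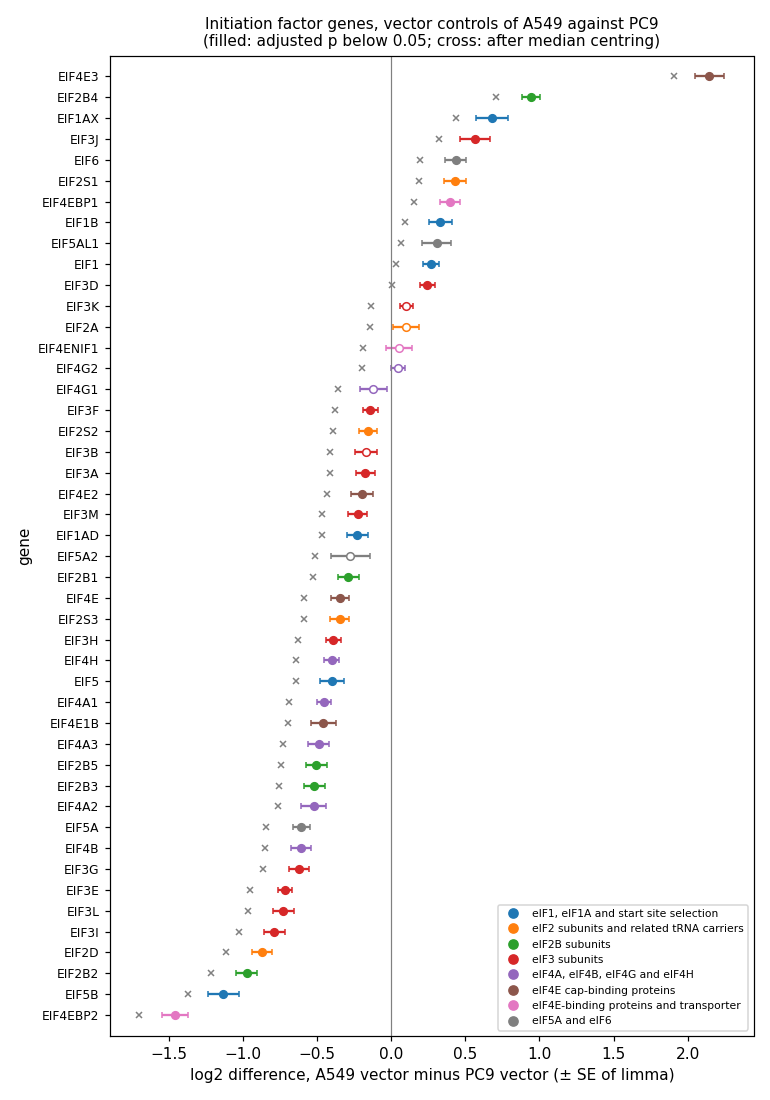
Log2 difference between the vector controls (horizontal axis, A549 minus PC9, with the SE of limma's fit) of the 46 members whose levels are given, in descending order, with crosses for the same value after median centring. EIF4E3 stands highest at 2.15 and EIF4EBP2 lowest at −1.46, and centring moves every point by −0.24.

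Regulators of the factors also differed between the vector controls. Of the 6 eIF2 kinases and phosphatase subunits, 4 were higher in A549 and none lower. PPP1R15A, the stress-induced eIF2 phosphatase subunit, was higher by 2.05 and EIF2AK3, the kinase of the endoplasmic reticulum stress response, by 1.73 on the log2 scale. Of 28 ATF4 and stress response genes, 14 were higher, 11 lower and 3 not called, with ATF3 highest (3.76) and CTH lowest (−2.14). Of the 21 mTORC1 and cap-dependent control genes, 7 were higher, 10 lower and 4 not. RPS6KB1, the ribosomal protein S6 kinase, was higher by 1.61, while MKNK1, a kinase that phosphorylates eIF4E, was lower by −2.04 and MKNK2 higher by 0.95.

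Of 19 other initiation partners, 7 were higher in A549, 7 lower and 5 not called, with the poly(A)-binding protein gene PABPC4 lowest at −1.81 and HABP4 highest at 1.78. Of 16 elongation and termination factors, 6 were higher, 7 lower and 3 not called. EEF1A2, the tissue-restricted form of elongation factor 1A, read 7.55 and 7.52 in A549, against 10.99 and 10.94 in PC9, while GSPT2, a release factor subunit, read 8.21 and 8.11 in A549, against 4.04 and 3.86 in PC9. The GSPT2 values in PC9 lay at the spike-in background. These shares stood beside the 46.0% and 29.7% of all genes called higher and lower between the lines.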

How the data were processed

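RNA of 8 arrays was labelled with biotin. The authors deposited log2 values for 49495 probe sets, and per the submitters' processing notes RMA was used. Neither its version nor whether 1 run covered all arrays was found in those notes. Probe sets were named from the platform annotation, updated through Entrez identifiers to GRCh38.p14 symbols. Of them 45284 had 1 symbol, 1333 several and 2878 none, and only the first kind stood for a gene. Dim probe sets were kept.

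Group means of 18244 genes over 8 arrays were estimated with limma 3.58.1 in R 4.3.3 (lmFit, eBayes with an intensity trend, 4 residual degrees of freedom), two-sided, with Benjamini-Hochberg adjustment over all genes of a comparison. With 2 arrays a group, the smallest exact permutation p is 0.333. On simulated data of the A549 comparison with 18244 genes, true log2 changes of 0.5 were recovered in 49.1% of cases, of 1 in 91.5% and of 2 in 99.7%, with 3.9% false calls. The simulated noise was independent between genes and arrays. These rates therefore do not cover deviations that the genes of an array share, such as those that go with the 18S rRNA signal. Same-numbered arrays were not labelled as pairs. The number of arrays limits the precision. Promoters came from RefSeq. Members, lists and tests were chosen with earlier results of these data known. EN2 and every member called with EN2, and the 4 highest and 4 lowest changes per line and 6 highest and 6 lowest differences between lines, got values per array. Other members were described by role, and of the other genes the called list members with the smallest p and the list extremes. EIF1AY levels were left out as Y-linked. Alternatives were the prior variance, brighter genes alone, normalisation over all arrays, the mean of all probe sets, the compared groups alone, a replicate block and leaving out arrays. The 18S rRNA fits and the test of every probe set were added after the data had been seen.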

Additional observations from a re-analysis of the deposited data

How the results depend on the processing

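The A549 count of called members, 2 as reported, was 1 with the brighter genes alone, where EIF5A2 stayed called (limma adjusted p = 0.0396). The count was also 1 with a constant prior variance, with each gene's probe sets averaged and with the compared groups alone, where EIF5A2 was not called. It ran from 1 to 3 when an array was left out, and was 0 in the model with 18S rRNA and without both A549 extremes of that signal, which leaves fewer arrays. The 18S rRNA signal did not overlap between the A549 EN2 and vector arrays, so these fits cannot separate it from EN2. The cause was not tested. Across all genes in A549, 287 were called higher and 209 lower as reported, 51 and 41 with the compared groups alone, 5 and 15 with 18S rRNA, 9 and 16 without both extremes, and from 54 and 58 to 369 and 254 when 1 array was left out, with the smallest counts without EN2 replicate 1 or vector replicate 2. In PC9, 27 and 40 became 7 and 16 with the compared groups alone. For the difference between the lines, 84 and 59 became 5 and 5 with 18S rRNA and 0 and 0 without both extremes, by limma. EIF5A2 stayed called in 7 of 18 alternatives, with a change of 0.42 to 0.94 and adjusted p from 0.0212 to 0.379. In PC9 and in the difference between the lines, no alternative called a member. Between the vector controls, 34 to 41 members were called, against 40 as reported. Over the 37 named changes of members, 634 of 649 refits kept their side of the threshold and none reversed a call. EIF5A2 in A549 gave 11 of the refits that crossed it, so the pooled share does not describe that call. With the replicate number as a block, 3 members and 538 higher and 334 lower genes were called in A549, EIF4A3 among them (0.29, adjusted p = 0.0386), and no other named call changed. Deviations of same-numbered arrays correlated at 0.349 in A549 and 0.066 in PC9, and the labels do not pair them. EN2's larger change in A549 than in PC9 passed with quantile normalisation (0.75, adjusted p = 0.0365) and not otherwise. Small changes of members may not be detectable with 2 arrays a group.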

Other observations

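Probe sets that the annotation shares between a member and another gene entered no comparison above. The 5 shared by EIF3C and EIF3CL, near-identical genes of an eIF3 core subunit, had log2 changes of −0.16 to −0.026 with EN2 in A549 and 0.076 to 0.11 in PC9, and none passed when every probe set was tested with limma. Their signs were opposite in the lines, and the smallest adjusted p of a difference between the lines was 0.515. The 3 shared by EIF5A and EIF5AL1 were negative in both lines, from −0.19 to −0.14 in A549 and from −0.12 to −0.044 in PC9. The probe set shared by EIF4EBP3 and its readthrough gene changed by −0.093 in A549 and 0.089 in PC9.

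EIF4A2 hosts small nucleolar RNAs in its introns. The 4 probe sets shared by EIF4A2 with SNORA4 or SNORA63 were all lower in A549 with EN2, by −0.36 to −0.25 on the log2 scale, while the 4 probe sets of EIF4A2 alone ran from −0.29 to 0.018, with 3 of them negative. None of the 4 shared ones passed limma's test of every probe set, with a smallest adjusted p of 0.0911. In PC9 they ran from −0.054 to 0.23. Between the vector controls they were 0.0085 to 0.53 higher in A549, where the probe sets of EIF4A2 alone were −0.87 to −0.40.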
